A study of Homo sapiens with 12 samples.

Results

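The netrin receptors and the netrins they bind were followed here in SK-N-DZ, a MYCN-amplified neuroblastoma cell line. The set has 8 genes, taken by name from 43769 rows of the count table: the UNC5 receptors UNC5A, UNC5B, UNC5C and UNC5D, the receptors DCC and NEO1 (neogenin), and the ligands NTN1 (netrin-1) and NTN4 (netrin-4). UNC5B was the reason for the choice, since it was among the strongest increases in doxycycline-treated cells over controls, and its relatives were added by family. Of the 8 genes, 7 passed the filter on low counts together with 15828 genes in all, and UNC5D did not.

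The study asked how loss of ARID1A, a DNA-binding subunit of the SWI/SNF chromatin remodelling complex, alters the response of neuroblastoma cells to interferon gamma (IFNγ). RNA was sequenced from 12 libraries in 4 groups of 3 replicates. Control (C) and IFNγ (I) libraries carry the genotype label WT, and Dox (D) and Dox+IFNγ (DI) libraries carry the label shARID1A. Per the methods the cells are a clonal line with an inducible hairpin against ARID1A, which doxycycline switches on, so results describe 1 clone of 1 line. Per the labels, doxycycline was given for 4 days and IFNγ for 24 h. No library had doxycycline without the hairpin, so an effect of the drug and an effect of ARID1A loss cannot be told apart. In these bulk libraries, a change in the RNA of each cell and a change in the share of cells that express a gene cannot be told apart either.

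Netrins are secreted guidance cues, related to laminin, that steer growing axons and migrating cells. DCC and neogenin mediate attraction, and UNC5 receptors, alone or with DCC, mediate repulsion. DCC, neogenin and the UNC5 receptors are also known as dependence receptors: bound by ligand they signal for growth or survival, and without ligand they can be cleaved by caspases and promote cell death. UNC5B is additionally known as a p53 target gene and as a guidance receptor of vascular endothelium.

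Libraries held 16469832 to 21790869 counts, at which the detection floor of 3 counts equals 0.135 to 0.187 CPM (counts scaled to a common library size). ARID1A itself was at 197, 186 and 165 CPM in C and at 197, 159 and 158 CPM in D, and these groups overlapped. With IFNγ it was at 192, 203 and 194 CPM in I and at 151, 133 and 148 CPM in DI. The log2 fold change was −0.09 (SE 0.11, edgeR adjusted p = 0.788) in D vs C and −0.44 (SE 0.11, adjusted p = 0.115) in DI vs I, and the latter had an adjusted p = 0.0111 once the replicate number was a block. The mRNA of the targeted gene therefore separated DI from I but not D from C. All 9 adrenergic neuroblastoma markers, among them GATA3 and MYCN, were above the floor. Of 9 endothelial markers, PECAM1, KDR, TEK, TIE1 and EMCN were at or under the floor in every library, and the 9 together summed to at most 5.73 CPM in any library. Of 6 Schwann and glial markers, SOX10 and CDH19 were at or under the floor, and the list summed to at most 11.1 CPM. Without doxycycline, mitochondrially encoded mRNAs took 3.35 to 4.99% of a library (C) or 2.90 to 4.42% (I). With doxycycline they took 0.856 to 1.30% (D) or 0.768 to 2.58% (DI). Of the 9 mesenchymal markers FN1 was at 379 to 3330 CPM over all libraries, and VIM, the next highest, at 38.5 to 209 CPM. Sums of the 9 are thus led by FN1 and are not read as a shift of the whole list. The 9 summed to 623 to 959 CPM (C) and 820 to 1397 CPM (D). Libraries with IFNγ had sums of 2008 to 3510 CPM (I) and 1472 to 3023 CPM (DI). The part of these shifts in the results below was not tested.

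UNC5B, UNC5C, UNC5A and NEO1 were the expressed members, and DCC, UNC5D and both netrins were scarce. Per kilobase of exon, no library had any of the first 4 below 3.06 CPM per kb, and none had any of the last 4 above 0.879 CPM per kb. In C the order was UNC5C (13.4 ± 3.83 CPM per kb, SD, n = 3), NEO1 (11.6 ± 0.99), UNC5B (11.0 ± 2.04) and UNC5A (10.9 ± 5.47), and neighbours in that order lay within each other's spread. In D the level of UNC5B (34.1 ± 10.3 CPM per kb) was above that of UNC5C (18.1 ± 3.09), NEO1 (15.2 ± 0.41) and UNC5A (7.77 ± 4.89) in each of the 3 libraries. In I the levels of UNC5C (18.9 ± 4.78 CPM per kb), NEO1 (18.8 ± 2.18) and UNC5B (16.7 ± 0.65) lay within their spread of each other, with UNC5A (9.29 ± 4.85) the lowest of the 4 on average. In DI the level of UNC5B (31.6 ± 9.29 CPM per kb) was above that of UNC5C (19.5 ± 2.90) in 3 of 3 libraries and above that of NEO1 (19.8 ± 1.89) in 2 of 3.

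**Figure D1:**
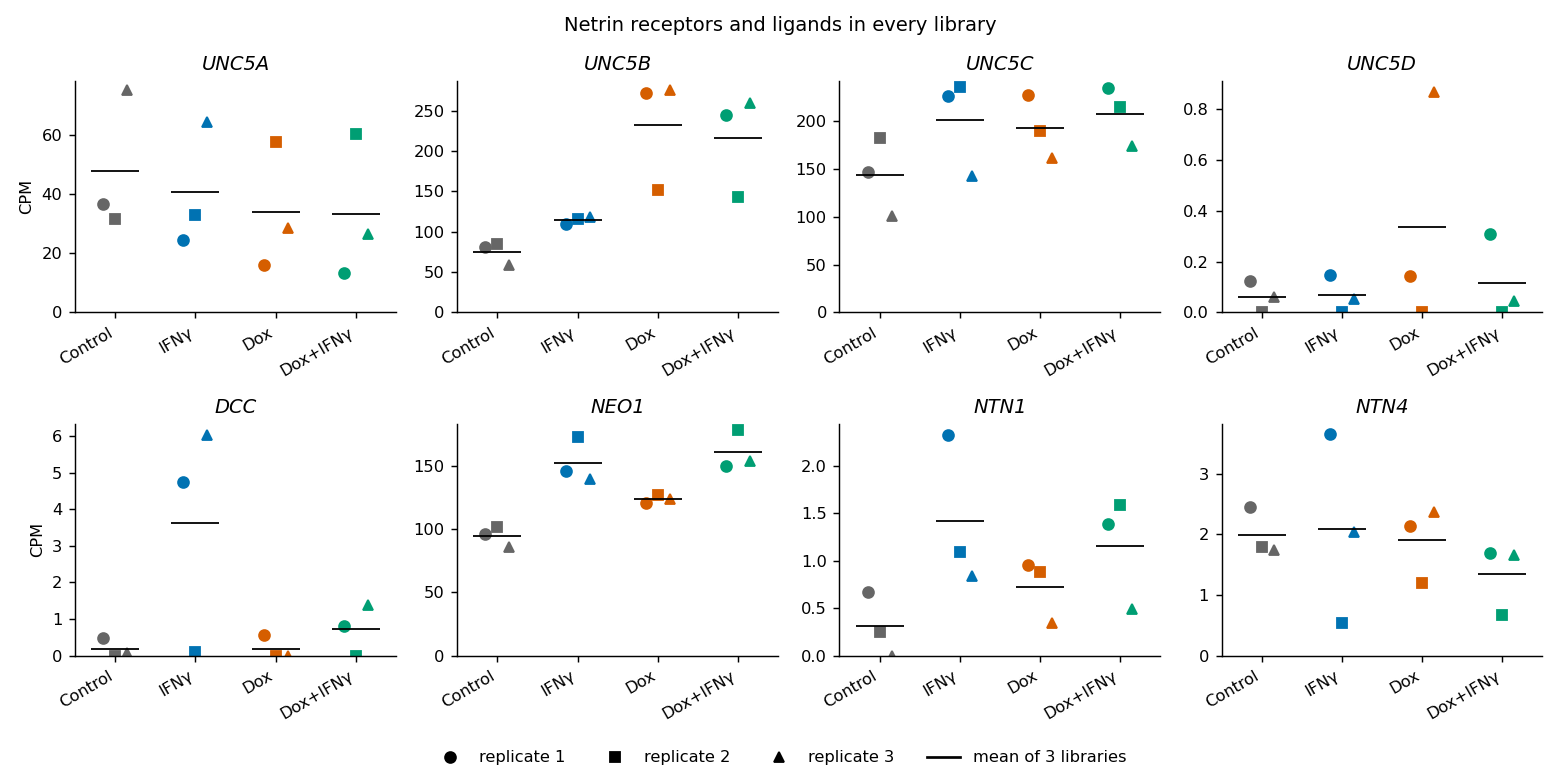
Levels of the 8 genes in CPM (vertical axes, linear, starting at 0, each with its own range) in the 4 groups, with replicates 1, 2 and 3 as circles, squares and triangles and the mean of 3 libraries as a bar. UNC5B lies between 58.9 and 84.7 CPM in C and between 151 and 276 CPM in D, NEO1 lies higher in I than in C in all libraries, and DCC stands above 4 CPM in 2 libraries of I alone.

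UNC5B (ENSG00000107731), a single-pass receptor with a cytoplasmic death domain, lies on the plus strand at chr10:71212570-71302864 (GRCh38, GENCODE 29). It was at 81.1, 84.7 and 58.9 CPM in C and at 272, 151 and 276 CPM in D. The 3 Dox libraries all stood above the 3 controls, and replicate 2 was the lowest of them by far. The log2 fold change was 1.64 (SE 0.27) in D vs C. In that contrast 78 genes were called higher and 116 lower, but 199 higher and 89 lower with library size alone as the scaling, under which UNC5B was at 1.72. This contrast chose UNC5B, so its value is a description without a test.

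The libraries with IFNγ were not used in that choice, but they are not independent of it. Libraries of the same number and doxycycline label correlated at 0.555 to 0.804 after group means were removed. With IFNγ, UNC5B was at 109, 116 and 118 CPM in I and at 246, 143 and 260 CPM in DI. The groups again did not overlap, and DI replicate 2 was again the lowest of its group. The log2 fold change was 0.92 (SE 0.26), which did not pass the threshold (edgeR, adjusted p = 0.174). With the replicate number as a block it was 0.88 and passed (edgeR, adjusted p = 0.0367), as it did by the DESeq2 Wald test (adjusted p = 0.0276). The doxycycline difference was therefore in the same direction in both arms, and its call in the IFNγ arm depended on how the replicate spread was modelled.

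Within a replicate number, UNC5B was higher with doxycycline in 3 of 3 pairs of libraries with IFNγ. It was also higher in 3 of 3 pairs without IFNγ, which restates the choice. The ratio of D over C was 3.35 in replicate 1, 1.79 in replicate 2 and 4.69 in replicate 3. The ratio of DI over I was 2.25, 1.24 and 2.20 in the same order. Replicate 2 had the smallest ratio in each arm.

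IFNγ without doxycycline went with higher UNC5B, and IFNγ on top of doxycycline did not. Every I library stood above every C library, with a log2 fold change of 0.61 (SE 0.26), which did not pass the threshold (edgeR, adjusted p = 0.564, and 0.196 with the replicate block). DI libraries stood below the D library of the same number in 3 of 3 pairs, by small amounts, and the log2 fold change was −0.11 (SE 0.26, edgeR, adjusted p = 1.00). The difference between both responses to IFNγ was −0.72 on the log2 scale (SE 0.37) and was not called (edgeR, adjusted p = 1.00). An alternative chosen after the data were seen, with the replicate number as a block within each doxycycline label, called the higher level in I (edgeR, adjusted p = 7.41e-05), where it called 14.6% of all genes. In that fit the difference between the IFNγ responses was −0.73 (SE 0.12, edgeR, adjusted p = 0.0523) and was not called, where 0.0253% of all genes were called. C and D libraries enter these comparisons too, so they are not independent of the values that chose UNC5B. A choice by high D over C favours low C and high D values. That favours in advance a higher I vs C, a lower DI vs D and a negative difference between the responses. The values for UNC5B are therefore descriptions, and nothing is read from their p-values.

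**Figure D2:**
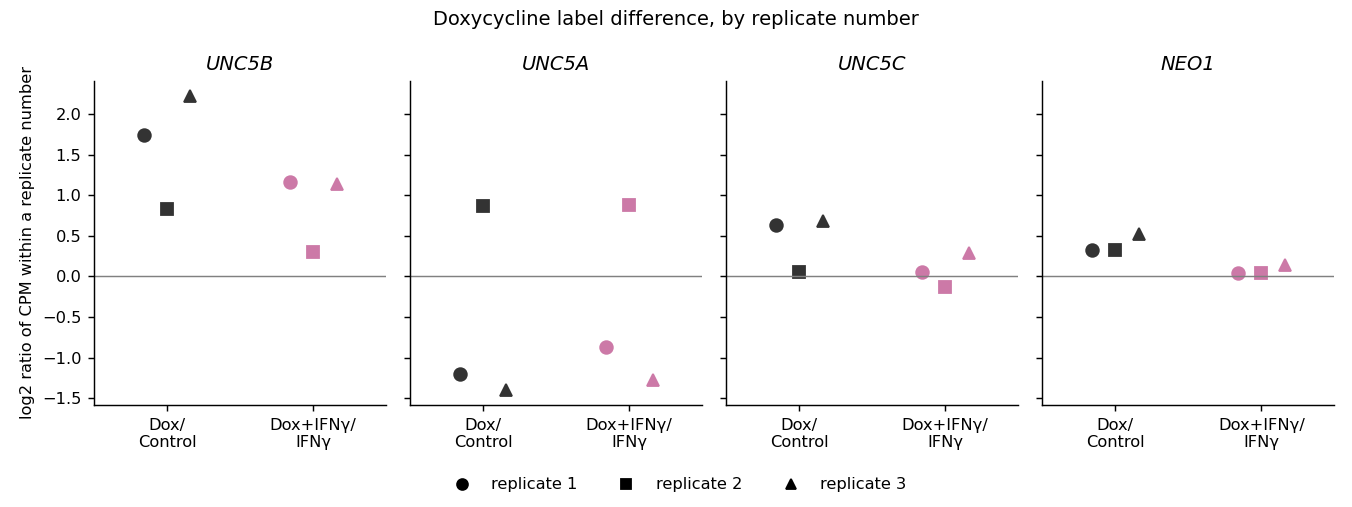
The log2 ratio of CPM (vertical axis) between the library with and the library without doxycycline of the same replicate number, for UNC5B, UNC5A, UNC5C and NEO1, without IFNγ (dark) and with it (pink), and with replicates as circles, squares and triangles. UNC5B lies above 0 in the 3 pairs with IFNγ, and in the 3 pairs without it that chose the gene, and UNC5A lies above 0 in replicate 2 and below 0 in replicates 1 and 3 in both arms.

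UNC5A (ENSG00000113763, chr5:176810477-176880898, plus strand), a mostly neuronal receptor of the same family, differed widely between replicate numbers within each group. It was at 36.4, 31.4 and 75.0 CPM in C and at 15.9, 57.4 and 28.4 CPM in D, in the order of replicates 1, 2 and 3. It was at 24.3, 32.7 and 64.4 CPM in I and at 13.3, 60.1 and 26.6 CPM in DI. All 4 group ranges overlapped, and the pattern over the replicate numbers without IFNγ was found again with it.

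In replicates 1 and 3 UNC5A was lower with doxycycline, by ratios of 0.436 and 0.378 without IFNγ and of 0.548 and 0.413 with it. In replicate 2 it was higher with doxycycline, by 1.83-fold without IFNγ and 1.84-fold with it. The group comparison averaged over these opposite directions: the log2 fold change was −0.49 (SE 0.61) in D vs C, given as a description, and −0.28 (SE 0.61, edgeR, adjusted p = 0.924) in DI vs I. A model with a doxycycline difference for each replicate number, added after the data were seen, found that the difference varied with the number (edgeR, adjusted p = 2.32e-07). Its p rests on the spread between libraries of the same number and doxycycline label, which correlated at 0.555 to 0.804 after group means were removed. The p may therefore not measure spread between independent cultures. That test called 15.8% of all genes, and UNC5A was 75th of 15828 by its F statistic. No rank or p is given for UNC5B, because its C and D libraries chose it. C and D libraries are 6 of the 12 in the test, and UNC5A was chosen by family and not by its values. The labels do not say what a replicate number stands for.

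UNC5C (ENSG00000182168, chr4:95162504-95549206, minus strand), a receptor needed for cerebellar development in mice, was at 147, 182 and 101 CPM in C and at 228, 189 and 162 CPM in D. It was at 226, 235 and 143 CPM in I and at 235, 215 and 174 CPM in DI. All 4 groups overlapped, and replicate 3 was the lowest library of each.

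IFNγ went with higher UNC5C in 6 of 6 pairs of the same number and doxycycline label. The log2 fold change was 0.49 (SE 0.24) in I vs C, which did not pass the threshold (edgeR, adjusted p = 0.713) except with the replicate block (adjusted p = 0.0319). It was 0.29 without C replicate 3 and 0.69 without C replicate 2. It was 0.11 (SE 0.24, adjusted p = 1.00) in DI vs D. The doxycycline difference of UNC5C was 0.43 (SE 0.24) in D vs C, as a description, and 0.05 (SE 0.24, edgeR, adjusted p = 0.973) in DI vs I. It too varied with the replicate number in the model used for UNC5A, with the same limit on its p (edgeR, adjusted p = 0.00797). The ratios of D over C were 1.55, 1.04 and 1.61 in replicates 1, 2 and 3. An antisense gene, UNC5C-AS1, shares 78 exon bases with UNC5C and had 75 to 297 counts against 1617 to 4776 for UNC5C. Whether counting used strand is not given in the sources used here, so reads of that overlap cannot be assigned.

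UNC5D (ENSG00000156687, chr8:35235457-35796550, plus strand) had 0 to 15 counts and was not tested. It was at 0 counts in all 4 libraries of replicate 2, and its 15 counts were in D replicate 3. A count of 0 allows up to 3 counts, the floor given above.

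Set against the rest of its family, UNC5B was 34.9, 33.8 and 24.4% of the summed UNC5 level per kilobase in C, and 61.4, 41.7 and 65.0% in D. It was 37.4, 36.4 and 38.0% in I, and 58.9, 38.1 and 62.9% in DI. Replicates 1 and 3 with doxycycline were the 4 libraries in which UNC5B was more than all other UNC5 transcripts together. The C and D shares restate the contrast that chose UNC5B. UNC5A was 48.8% of the level in C replicate 3 and 5.63% in D replicate 1.

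**Figure D3:**
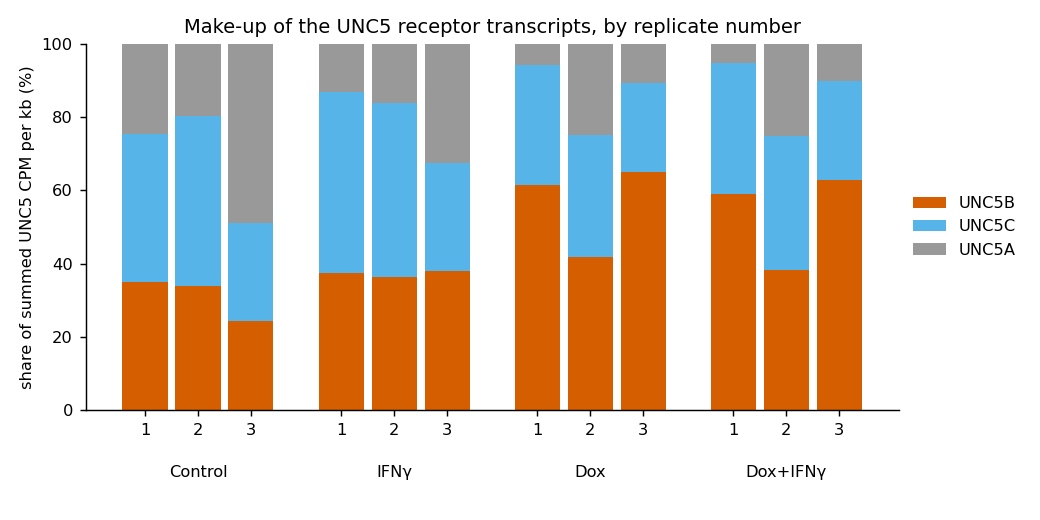
Share of the summed UNC5 CPM per kb (vertical axis, percent) held by UNC5B, UNC5C and UNC5A in each of the 12 libraries, by group and replicate number; UNC5D is at most 0.129% and is not drawn. UNC5B takes 58.9 to 65.0% in the Dox and Dox+IFNγ libraries of replicates 1 and 3, and 38.1 to 41.7% in those of replicate 2.

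NEO1 (ENSG00000067141, chr15:73051710-73305206, plus strand), which encodes neogenin, a relative of DCC that binds netrins and repulsive guidance molecules, rose with IFNγ. It was at 96.3, 102 and 85.8 CPM in C and at 146, 173 and 140 CPM in I. Every I library stood above every C library, and within a number the ratio was 1.51, 1.70 and 1.63. The log2 fold change was 0.69 (SE 0.11, edgeR, adjusted p = 0.00472). This was the 1 call among the 7 members tested in I vs C, where 2.21% of all genes were called. It held with each single library left out, and was lost when the 4 libraries of replicate 1 or of replicate 3 were left out (edgeR, adjusted p = 0.227 and 0.0985).

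With doxycycline NEO1 was at 120, 127 and 124 CPM without IFNγ and at 150, 178 and 154 CPM with it. These groups did not overlap either, and the log2 fold change in DI vs D was 0.38 (SE 0.11), which did not pass the threshold (edgeR, adjusted p = 0.202) except with the replicate block (adjusted p = 0.0119). The difference between both IFNγ responses was −0.31 (SE 0.16, edgeR, adjusted p = 1.00). NEO1 in D stood above C in every library, with a log2 fold change of 0.39 (SE 0.11), given as a description because this contrast chose the set. In DI vs I it was 0.08 (SE 0.11, edgeR, adjusted p = 0.872), and I and DI overlapped.

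**Figure D4:**
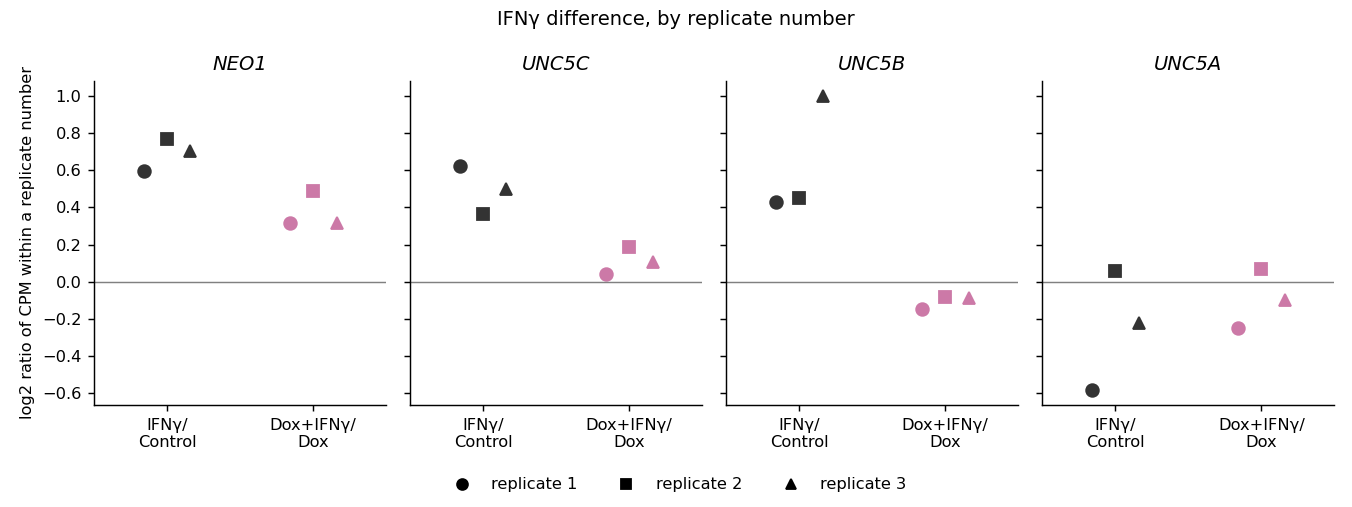
The log2 ratio of CPM (vertical axis) between the library with and the library without IFNγ of the same replicate number, for NEO1, UNC5C, UNC5B and UNC5A, without doxycycline (dark) and with it (pink), and with replicates as circles, squares and triangles. NEO1 and UNC5C lie above 0 in all 6 pairs, and UNC5B lies above 0 in the 3 pairs without doxycycline and below 0 in the 3 with it.

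The promoter windows of RefSeq, 250 bases before to 50 bases after each start, were searched on both strands for the core of the interferon-stimulated response element (ISRE), GAAANNGAAA, which IRF and ISGF3 factors are known to bind. They were also searched for the gamma-activated site (GAS) TTCNNNGAA, an element known from IFNγ-responsive promoters. Of the members, UNC5A, UNC5C, DCC and NEO1 had 1 window each and NTN4 had 2; UNC5B, UNC5D and NTN1 had none in the table. The ISRE core was in the NEO1 window, and the GAS was in none of the 6. The ISRE core is in 3.57% of 35116 windows, in 2.78% of those of genes tested here, and in 22.0% of those of genes called higher in I vs C. The GAS is in 7.66, 6.26 and 16.7% of the windows of the same sets. CASP8, with 3 windows searched, and PLXNC1, with 2, also rose in I vs C (below) and hold the ISRE core too. CASP8 also holds the GAS, 200 to 192 bases before a start. The stretches are from those genes of the set and its pathway that were called higher in I vs C and hold the core in a window. Each is on the gene's strand with the core in capitals, which reads as GAAANNGAAA on the strand opposite for NEO1 and CASP8:

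NEO1 (chr15:73051842-73051871, + strand, 50 to 41 bases before the start): cccggaggccTTTCGGTTTCctctgaggcc

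CASP8 (chr2:201233450-201233479, + strand, across the start): gagtttttggTTTCTGTTTCaccttgtgtc

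PLXNC1 (chr12:94148574-94148603, + strand, after the start): ttcacaatggGAAAGTGAAAcgcacaagcg

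Coordinates are of GRCh38.p14. In GENCODE 29 the NEO1 and CASP8 stretches overlap an exon and its untranslated part in their own gene, and the PLXNC1 stretch overlaps no gene. PLXNC1 holds the core in a second window as well. The matches describe letters, and no binding was measured here.

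DCC (ENSG00000187323, chr18:52340172-53535903, plus strand), the founding dependence receptor, was scarce, and highest in I replicates 1 and 3. It had 8, 0 and 1 counts in C and 12, 0 and 0 in D. It had 96, 2 and 115 counts in I (4.75, 0.109 and 6.03 CPM) and 16, 0 and 31 in DI (0.821, 0 and 1.40 CPM). Replicate 2 was at or under the floor in every group, so the high values of I rest on replicates 1 and 3. The fitted log2 fold change in I vs C was 4.30 (SE 1.79), against controls at or near the floor, so its size depends on the prior count of the fit. It did not pass the threshold (edgeR, adjusted p = 0.525) except with the replicate block (adjusted p = 0.0136). In C and D only D replicate 1 reached 10 counts, the minimum of the filter, so DCC passed the filter through libraries with IFNγ. Its test in I vs C is therefore not independent of its high level in I. The log2 fold change was 6.70 without C replicate 1, and 3.68 to 4.86 without any other single library of C or I. In DI vs I the fitted value was −2.28 (SE 1.55, edgeR, adjusted p = 0.633, and 0.0687 with the block).

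NTN1 (ENSG00000065320, chr17:9021542-9244000, plus strand), the classical ligand of DCC and UNC5 receptors, had 11, 5 and 0 counts in C and 20, 17 and 6 in D. It had 47, 20 and 16 counts in I and 27, 31 and 11 in DI. In CPM every I library (2.33, 1.09 and 0.838) stood above every C library (0.676, 0.248 and 0), and the other comparisons overlapped. The log2 fold change in I vs C was 2.19 (SE 0.90), which did not pass the threshold (edgeR, adjusted p = 0.509) except with the replicate block (adjusted p = 0.0364). It was 3.36 without C replicate 1 and 1.62 without C replicate 3. NTN1 was thus present at a low level in all groups but not in each library, since C replicate 3 had no count.

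NTN4 (ENSG00000074527, chr12:95657807-95791152, minus strand), a netrin of basement membranes, had 40, 36 and 28 counts in C and 45, 23 and 41 counts in D. With IFNγ it had 74, 10 and 39 counts (I) and 33, 13 and 37 counts (DI). Groups overlapped in D vs C, DI vs I, I vs C and DI vs D. Replicate 2 was the lowest library of D, I and DI.

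The counts of calls among the 7 members tested stand here beside the background of each comparison. DCC and NTN1 were near the filter on low counts, and DCC passed it through libraries with IFNγ. The counts of calls are therefore not read as support for the set. In DI vs I edgeR called 0 of 7, beside 0.67% of all genes, and 1 with the replicate block, beside 10.5%. At an unadjusted p under 0.05 there was 1 of 7, beside 12.2% of all genes. DESeq2 called 1 of 7, beside 2.91%. In I vs C it called 1 of 7 without the block (4 at an unadjusted p under 0.05, 1 by DESeq2) and 4 of 7 with it, where the block called 6.02% of all genes. The 4 were NEO1, UNC5C, DCC and NTN1. In DI vs D edgeR called 0 of 7 and 1 with the block, against 1.72% and 4.46% of all genes. It had 1 at an unadjusted p under 0.05, against 6.24%, and DESeq2 called 0, against 2.56%. For the difference between the IFNγ responses edgeR called 0 of 7 members and 0.0% of all genes. At an unadjusted p under 0.05 there were 0 members, beside 99 of 15828 genes. DESeq2 called 0 members and 1 gene in all. In D vs C, 1.23% of all genes were called, and nothing is read from the members there.

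Counts of groups that did not overlap are likewise not read as support for the set. Every library of I stood above every library of C for 3 of 7 members (UNC5B, NEO1 and NTN1), against 8.84% of all genes tested. For UNC5B the choice had favoured this in advance. Every DI library stood above every D library for 1 of 7 (NEO1), against 5.77%. Every DI library stood above every I library for 1 of 7 (UNC5B), against 8.17%. In D vs C it was 2 of 7 (UNC5B and NEO1) against 10.1%, which the choice of the set had used.

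The rest of the netrin pathway was followed in 8 lists of 138 genes, of which 129 were tested. In DI vs I edgeR called 0 of them, with 17 at an unadjusted p under 0.05 (13.2%, beside 12.2% of all genes) and 1 by DESeq2 (0.775%, beside 2.91%). The median log2 fold change of the 129 was −0.02, beside −0.01 over all genes. With the replicate block 13 of 129 were called (6 higher, 7 lower), which is 10.1% of the list genes beside 10.5% of all genes, so the list did not stand out from the background. In D vs C edgeR called 0 of 129, with 18 at an unadjusted p under 0.05 (14.0%, beside 14.2% of all genes) and 3 by DESeq2 (2.33%, beside 4.10%). With the block it called 24 (14 higher, 10 lower), which is 18.6% beside 13.9% of all genes.

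In I vs C edgeR called 3 of 129, all higher, which is 2.33% beside 2.21% of all genes, and the median over the lists was 0.03 beside −0.01 over all genes. CASP8, the initiator caspase of death receptors, was at 0.310 ± 0.186 CPM in C and 3.06 ± 1.14 in I (SD, n = 3; log2 fold change 3.25, SE 0.52, edgeR, adjusted p = 0.00463). Its level in C was near the floor of 0.149 to 0.187 CPM, so the size of its fold change depends on the prior count of the fit. PLXNC1, a semaphorin receptor, went from 8.69 ± 0.35 to 19.3 ± 1.42 CPM (1.15, SE 0.22, edgeR, adjusted p = 0.0182). In DI vs D edgeR called 2 of 129, both higher (1.55%, beside 1.72% of all genes), among them the p53 target TP53INP1 (log2 fold change 0.50, SE 0.10, adjusted p = 0.0330). With the block 12 were called in I vs C (9.30%, beside 6.02% of all genes) and 8 in DI vs D (6.20%, beside 4.46%). CASP8 was the 1 gene of the death-machinery list called in I vs C without the block: 0 of the other 23 genes of that list were called.

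**Figure D5:**
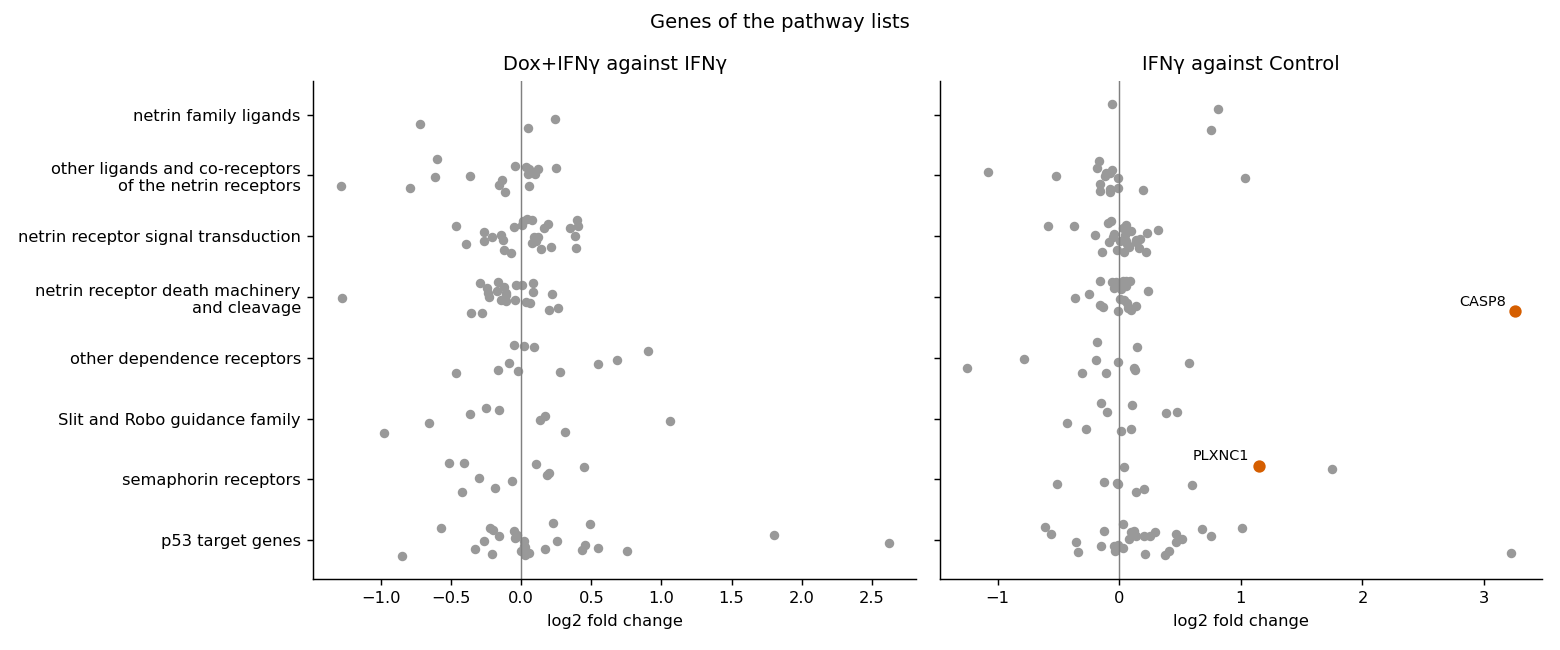
The log2 fold change (horizontal axes) of the tested genes of the 8 lists, apart from 1 (rows; vertical scatter within a row carries no value) in DI vs I and in I vs C, with genes called by edgeR in orange and the others in grey. No gene is called in DI vs I, and CASP8 and PLXNC1 are drawn as called in I vs C.

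Genes whose level followed UNC5B most closely over the 12 libraries (Pearson correlation of log2(CPM + 1), among 13961 genes with a mean of at least 1 CPM) were INO80 (0.952), SETD1B (0.948), DYRK1A (0.943), UGGT1 (0.943) and KIF5B (0.942). Their log2 fold changes in D vs C were 0.62, 0.73, 0.46, 0.71 and 0.30, against 1.64 for UNC5B. Those closest to NEO1 were SPTBN1 (0.979), IKZF4 (0.971), FRY (0.970), VPS13C (0.962) and TNRC18 (0.952), with log2 fold changes in I vs C of 1.06, 1.16, 1.31, 0.82 and 0.65, against 0.69 for NEO1. The 12 libraries share the group labels, the replicate numbers and the scaling, so these correlations are descriptions.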

How the data were processed

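The authors deposited raw counts per gene (whole numbers, 43769 rows, 17165 with no count in any library) for 12 libraries; aligner, counter, genome build and strand use are not given in the sources used here, and the submitters' processing notes name DESeq2. Another 18 per-library columns that match no sample label, and tables of the authors' own log2 fold changes and p-values, were not used. All identifiers occur in GENCODE 29.

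Counts were scaled by TMM, filtered with filterByExpr (minimum count 10) and tested with edgeR's quasi-likelihood test over all 12 libraries (edgeR 4.0.16, limma 3.58.1, R 4.3.3), two-sided, with Benjamini-Hochberg adjustment over 15828 genes and a threshold of 0.05. DESeq2 1.42.0 gave an alternative test, and the code was tested on simulated data. CPM is the count over the library size after TMM scaling. Levels per kilobase divide CPM by the union of GENCODE exons. The floor of 3 counts covers counting error only.

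Libraries with the same replicate number and doxycycline label correlated at 0.555 to 0.804 after group means were removed (6 pairs), pairs sharing a number but not the label at 0.338 to 0.613 (12 pairs), and pairs of unlike numbers at −0.628 to 0.143 (36 pairs). The numbers therefore pair the libraries by these values, though no label says what they mark, and blocked values stand beside results whose call they change. Replicates differed by more than counting noise (chi-square per gene 19.8 to 85.0). Nothing says that replicates came from separate cultures, so p-values may measure technical spread.

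Named genes were the 8 members, ARID1A, up to 3 called genes per list and comparison, and the 5 most like UNC5B and NEO1; some genes that the rule or the lists would name are not reported here. The members and lists were chosen with earlier results of these data known. Alternatives changed the scaling, filter, test, block and libraries.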

Additional observations from a re-analysis of the deposited data

Results flagged for a closer look

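The doxycycline difference of UNC5A varied with the replicate number (edgeR, adjusted p = 2.32e-07): the libraries with doxycycline were lower in replicates 1 and 3 and higher in replicate 2, with and without IFNγ. That of UNC5C varied as well (edgeR, adjusted p = 0.00797), being near 0 in replicate 2. UNC5A was 75th and UNC5C 1126th of 15828 genes by the F statistic of that model. No rank or p is given for UNC5B, because its C and D libraries chose it. The test called 15.8% of all genes. What a replicate number marks is not stated in the labels, and its part in these values was not tested.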

How the results depend on the processing

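TMM against DESeq2's size factors within edgeR changed no member's call and moved no count by over 1.5 times. With library size alone, 199 genes were called higher and 89 lower in D vs C (78 and 116 with TMM) and 54 and 65 in DI vs I (16 and 90), and 1 pathway list gene was called in D vs C, as was 1 in DI vs D; without the filter on low counts, 119 genes and 1 list gene were called in D vs C, as was 1 list gene in DI vs D. DESeq2's Wald test called 649 genes in D vs C, 460 in DI vs I, 530 in I vs C and 1 for the interaction, with 3, 1, 6 and 5 list genes in D vs C, DI vs I, I vs C and DI vs D and 1 member in DI vs I, UNC5B (log2 fold change 0.92). With only the libraries of the 2 groups compared, 16 genes were called in D vs C, against 0 in DI vs I, with 5 list genes in I vs C and 1 in DI vs D.

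With the replicate block, 2200, 1658, 953 and 706 genes were called in D vs C, DI vs I, I vs C and DI vs D, with 24, 13, 12 and 8 list genes. The blocked model called 1 member in DI vs I (UNC5B, 0.88), 4 in I vs C and 1 in DI vs D, and changed no other member's call. The block within each doxycycline label, chosen after seeing the data, called 2318 genes, 5 members and 33 list genes in I vs C (UNC5B at 0.62), 1770 genes, 1 member and 25 list genes in DI vs D, and 4 genes for the interaction.

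Leaving out 1 library, or, as an alternative chosen after seeing the data, all 4 libraries of 1 replicate number, gave 0 to 100 genes and 0 to 1 list genes called in D vs C, 0 to 77 genes in DI vs I, 127 to 314 genes, 0 to 1 members and 0 to 4 list genes in I vs C, and 98 to 244 genes and 0 to 3 list genes in DI vs D. NEO1 in I vs C lost its call without replicate 1 (adjusted p = 0.227) and without replicate 3 (0.0985), at log2 fold changes of 0.74 and 0.68, and kept it with each single library left out. UNC5B ranged from 1.34 to 1.96 in D vs C, from 0.76 to 1.16 in DI vs I (adjusted p 0.0504 to 0.886), from 0.43 to 0.70 in I vs C and from −0.34 to 0.12 in DI vs D, where it turned positive without D replicate 1, D replicate 3 or DI replicate 2. UNC5A ranged from −1.35 to 0.11 (D vs C) and from −1.15 to 0.39 (DI vs I), turning positive there without I replicate 3, DI replicate 1 or all of replicate 3. In I vs C, UNC5C ranged from 0.29 to 0.69, DCC from 3.33 to 6.70 and NTN1 from 1.62 to 3.36. UNC5C ranged from −0.13 to 0.17 in DI vs I and from −0.0031 to 0.24 in DI vs D, and NEO1 from −0.0070 to 0.17 in DI vs I. The cause of these shifts was not tested. Depth limits DCC, NTN1, NTN4 and UNC5D most, with 3 counts as the floor of a library.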
